A study of Mus musculus with 4 samples.

Results

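The 10 genes described here belong to the endoplasmic reticulum (ER) stress and unfolded protein response: Atf6, Xbp1, Hspa5, Hsp90b1, Pdia4, Dnajb9, Sdf2l1, Creld2, Ddit3 and Herpud1. They were picked by name, though with earlier results of these data known, and all 10 were found among the 29161 genes of the deposited count table. The cells came from intestinal enteroids, epithelial mini-guts grown in Matrigel for 5 to 8 days with R-spondin-1, EGF and noggin. The donors were female CD1 mice carrying the Neurog3eYFP/+ reporter, and living eYFP+ cells were sorted at 1 cell per well, so every cell shares that genotype, culture and gate. There were 72, 83 and 72 cells on the plates of duodenum replicates 1, 2 and 3, and 63 cells on the plate of jejunum replicate 1. The age given for duodenum replicate 1 was 39 weeks, and that given for each of the other plates was 12 weeks. The labels do not say how many mice or cultures stand behind each plate.

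The ER folds proteins that a cell will secrete. When unfolded proteins build up there, the membrane sensors ATF6, IRE1 and PERK switch on a shared programme: cleaved ATF6 and spliced XBP1 drive genes for chaperones and for the disposal of misfolded proteins, while PERK slows translation and, through ATF4, induces CHOP (the product of Ddit3). Secretory cells of the gut, which package hormones, mucins or antimicrobial proteins, are known to lean on this programme. RNA counts do not show ATF6 cleavage, and gene-level counts do not separate spliced from unspliced Xbp1.

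Cells were divided by what they package, in counts per 1000000 counts of the cell (CPM). Cells with at least 200 CPM of Tph1, the rate-limiting enzyme of serotonin synthesis, are called Tph1-high. Those with at least 1000 CPM of Cck, Gip, Gcg or Ghrl are called peptide-hormone-high. Those with at least 1000 CPM of Agr2 or Lyz1, genes of goblet and Paneth cells, are called Agr2/Lyz1-high, and cells under every limit are called other cells. In the order duodenum replicates 1, 2 and 3, then jejunum replicate 1, there were 19, 24, 19 and 30 Tph1-high cells. In the same order there were 0, 19, 8 and 12 peptide-hormone-high cells, 12, 5, 7 and 7 Agr2/Lyz1-high cells, and 37, 31, 36 and 11 other cells. The 13 cells past more than 1 limit were kept out of the comparisons. Few cells lay near the Tph1 limit, with 4 within a factor of 2 above it and 2 within that factor below; the nearest stood at 223 and 185 CPM. For the peptide hormones these numbers were 8 and 14 (nearest cells 1072 and 907 CPM), and for Agr2 or Lyz1 they were 17 and 11 (1000.2 and 842 CPM).

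Markers that had no part in the limits were compared with the names of the classes. A list of 8 enterochromaffin markers (serotonin cells) summed to between 72595 and 114272 CPM in the Tph1-high cells of the 4 plates and to between 3530 and 11701 CPM in other cells. The granin Chgb carried much of this sum, at 74376 CPM in Tph1-high, 13326 CPM in peptide-hormone-high and 6090 CPM in other cells. Each of the 8 markers was higher in Tph1-high than in other cells. Chgb is also among the 25 cargo genes below. For peptide-hormone-high cells a list of 8 peptide hormone cell markers gave 5505 to 12446 CPM, against 184 to 5636 CPM in other cells, so the ranges overlap. Sst, the somatostatin gene, which set no limit, was 1253 CPM in peptide-hormone-high and 1480 CPM in other cells. A list of 8 goblet markers summed to 28439 to 46745 CPM in Agr2/Lyz1-high cells and 8355 to 15703 CPM in other cells, and 7 Paneth markers to 11907 to 30002 CPM and 1049 to 2440 CPM. Tff3 and Spink4 carried much of the goblet sum, while Muc2, the main goblet mucin, reached only 143 CPM in Agr2/Lyz1-high cells and Clca1 only 0.119 CPM. The class is therefore called by its limit and not goblet or Paneth cells; of its 31 cells, 10 passed the Agr2 limit only, 17 the Lyz1 limit only and 4 both. The mix differed between plates: 9 of 12, 0 of 5 and 4 of 7 cells passed the Agr2 limit in the duodenum replicates and 1 of 7 in the jejunum. Agr2 stood at 1420, 1.39, 2696 and 448 CPM, and Lyz1 at 3971, 2687, 4271 and 8241 CPM, on these plates. Summed counts of 25 cargo genes (hormones, granins, mucins and antimicrobial proteins), some of which set the limits, made up a median of 8.23% of a cell's counts in Tph1-high cells, 5.11% in peptide-hormone-high cells, 5.15% in Agr2/Lyz1-high cells and 1.23% in other cells. A list of 8 immediate-early and dissociation-response genes also differed between classes, at 6225 to 8673 CPM in Tph1-high, 3737 to 3810 CPM in peptide-hormone-high, 1491 to 1733 CPM in other and 862 to 1823 CPM in Agr2/Lyz1-high cells. Its part in the results below was not tested. The median depth of a plate's cells ran from 321534 to 678124 counts, and the values may include PCR copies.

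No gene of the 10 passed the threshold (adjusted p under 0.05) in any of the 6 comparisons by edgeR's quasi-likelihood test, which compared counts summed per plate and class with the plate as a block. Against other cells, 0 of 10 passed in Agr2/Lyz1-high cells, where 0.0131% of all 15260 genes tested passed. It was 0 of 10 in peptide-hormone-high cells, where 0.0131% of all genes passed, and 0 of 10 in Tph1-high cells, where 1.25% passed. Between Agr2/Lyz1-high and hormone-high cells (the mean of the Tph1-high and peptide-hormone-high classes) it was 0 of 10, beside 2.69% of all genes. Between peptide-hormone-high and Tph1-high cells it was 0 of 10, beside 0.0328%. With so few calls over all genes, a count of 0 among 10 is near what the background gives. At an unadjusted p under 0.05, edgeR picked 1 of the 10 in Tph1-high against other cells and 1 in peptide-hormone-high against Tph1-high cells, Atf6 both times, and none in the other comparisons. Since 10.8% and 7.64% of all genes had such a p in these comparisons, 1 of 10 is near the background. DESeq2's Wald test called 1 of the 10, again Atf6, in each of those 2 comparisons, where it called 7.16% and 6.08% of all genes. It called 0 of 10 in the other class comparisons, where it called 8.27% of all genes (Agr2/Lyz1-high against other cells), 6.63% (peptide-hormone-high against other cells) and 21.3% (Agr2/Lyz1-high against hormone-high cells). The limma test on mean log2 values of the cells called Atf6 and Hsp90b1 in Tph1-high against other cells, where it called 3.15% of all genes. It called 0 of 10 in the rest, beside 0.0262%, 0.629%, 5.88% and 0.727% of all genes for Agr2/Lyz1-high against other, peptide-hormone-high against other, Agr2/Lyz1-high against hormone-high and peptide-hormone-high against Tph1-high cells.

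**Figure D1:**
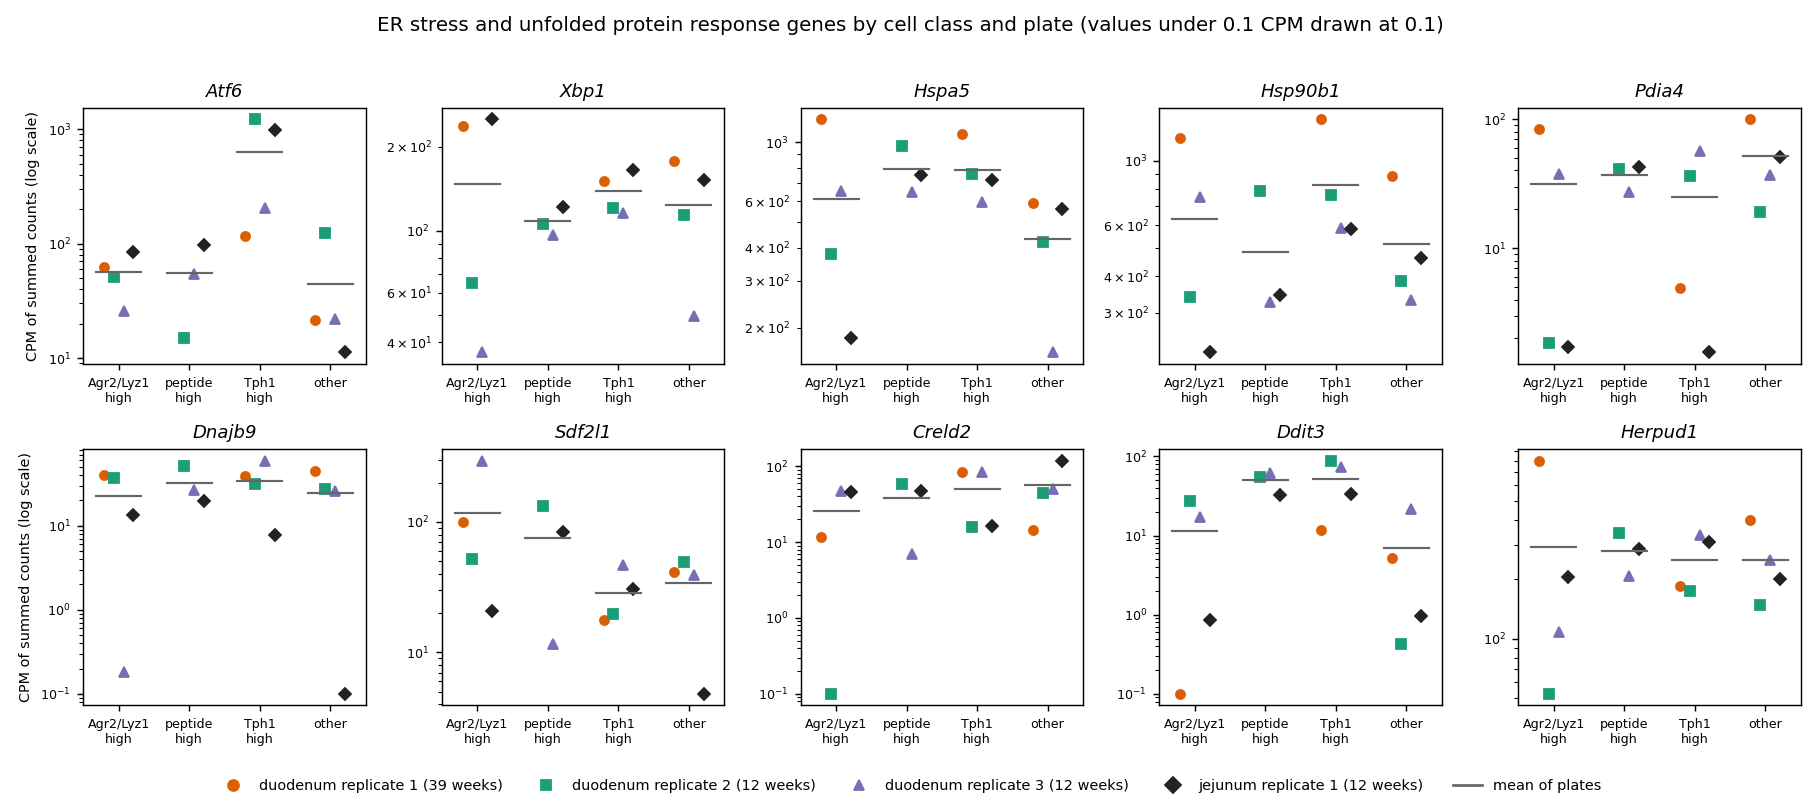
Level of each of the 10 genes (CPM of summed counts, log axis) in the 4 cell classes; each point is 1 plate, the grey line is the mean of the plates, and sums of fewer than 5 cells are not drawn. Atf6 in Tph1-high cells stands at 117 to 1218 CPM, higher than in other cells on all 4 plates, while the classes overlap for most of the other genes.

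Atf6 encodes the sensor that is cut and sent to the nucleus as a transcription factor (ENSMUSG00000026663; GRCm38, chromosome 1, 170704674 to 170867771, minus strand). In Tph1-high cells its level was 117, 1218 and 205 CPM in duodenum replicates 1, 2 and 3 and 993 CPM in jejunum replicate 1. In other cells it was 21.5, 124 and 21.9 CPM in the duodenum replicates and 11.2 CPM in the jejunum. Tph1-high cells were the higher class on all 4 plates, but the plates differed widely within that class, and the lowest Tph1-high plate (117 CPM) lay just under the highest plate of other cells (124 CPM). The mean was 633 ± 554 CPM in Tph1-high and 44.6 ± 53.0 CPM in other cells (SD, n = 4 plates). The edgeR log2 fold change was 3.50 ± 0.92 (SE), with an adjusted p of 0.137, so Atf6 did not pass, although its unadjusted p was under 0.05. By DESeq2 the adjusted p was 0.000294, and by limma it was 0.00875; over all 19 alternatives the log2 fold change lay between 2.81 and 4.09, with adjusted p from 0.000294 to 0.494.

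Peptide-hormone-high cells, which also secrete by way of the ER, held 14.9, 54.0 and 96.9 CPM of Atf6 in duodenum replicates 2 and 3 and the jejunum. All 3 values are below the Tph1-high value of the same plate, and the log2 difference was -3.06 ± 1.03 (SE; edgeR adjusted p = 0.544; DESeq2 adjusted p = 0.0158). Agr2/Lyz1-high cells held 62.5, 51.4 and 25.8 CPM in the duodenum replicates and 84.8 CPM in the jejunum. That was above other cells on 3 of 4 plates (log2 fold change 0.85 ± 0.89 SE, edgeR adjusted p = 0.856). In order of the mean over plates, Atf6 stood highest in Tph1-high cells (633 CPM), then in Agr2/Lyz1-high (56.1 CPM), peptide-hormone-high (55.3 CPM) and other cells (44.6 CPM); the last 3 do not differ beyond their spread.

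In single cells Atf6 was present at high level or nearly absent, and in 6 of the 15 sums a single cell held at least 50% of its counts. None of these 6 was a Tph1-high sum, where the top cell held 16.4 to 32.3%. At least 100 CPM was found in 7 of 19, 20 of 24 and 7 of 19 Tph1-high cells of duodenum replicates 1, 2 and 3 and in 21 of 30 of the jejunum, and in 3 of 37, 6 of 31, 4 of 36 and 0 of 11 other cells. The share was thus larger in Tph1-high cells on each plate, and the plates with the higher sums also had more such cells. The limit of 100 CPM was used because low values were common where a gene was abundant on the plate: every one of the jejunum's other cells held Tph1, at 10.5 to 54.6 CPM. With every cell thinned to 100000 counts, at least 1 Atf6 count was seen in 71.7% of the 92 Tph1-high cells (exact 95% interval 61.4 to 80.6%), 33.3% of 39 peptide-hormone-high cells (19.1 to 50.2%), 45.2% of 31 Agr2/Lyz1-high cells (27.3 to 64.0%) and 27.0% of 115 other cells (19.1 to 36.0%). Unthinned, these shares were 80.4%, 71.8%, 71.0% and 50.4%. These shares pool the cells of all plates, and the plates entered the classes unequally. The jejunum gave 30 of the 92 Tph1-high cells and 11 of the 115 other cells. A cutoff of 1 count also takes in the low values named above. The intervals cover counting error only, since cells of a plate share their source. The 2 annotated genes that overlap Atf6 on its strand are small nuclear RNAs at no more than 0.14 CPM in any class.

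Within plates, Atf6 did not climb steadily with Tph1. In duodenum replicate 1 the summed Atf6 level was 15.1, 110, 145, 84.2 and 140 CPM in cells with Tph1 at 0 to 10, 10 to 50, 50 to 200, 200 to 1000 and at least 1000 CPM. In the same ranges it was 24.7, 81.3, 806, 1305 and 1124 CPM in duodenum replicate 2, and 39.2, 12.1, 0 and 89.2 CPM, then 252 CPM, in duodenum replicate 3. The jejunum had no cell under 10 CPM of Tph1, and its levels in the remaining ranges were 65.0, 30.3, 69.8 and 1163 CPM. The highest Tph1 range was above the lowest range that held cells on each plate, while the order between them differed from plate to plate. Among Tph1-high cells the rank correlation of Atf6 with Tph1 within plates was 0.10 (92 cells). The range of 50 to 200 CPM holds 8 cells in all, and in duodenum replicate 2 it rests on 1 of the other cells with 2298 CPM of Atf6 and 111 CPM of Tph1. The plate's remaining other cells held at most 19.8 CPM of Tph1. That cell gave 71.3% of the Atf6 counts of the plate's other cells, and without it their level was 36.9 CPM.

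**Figure D2:**
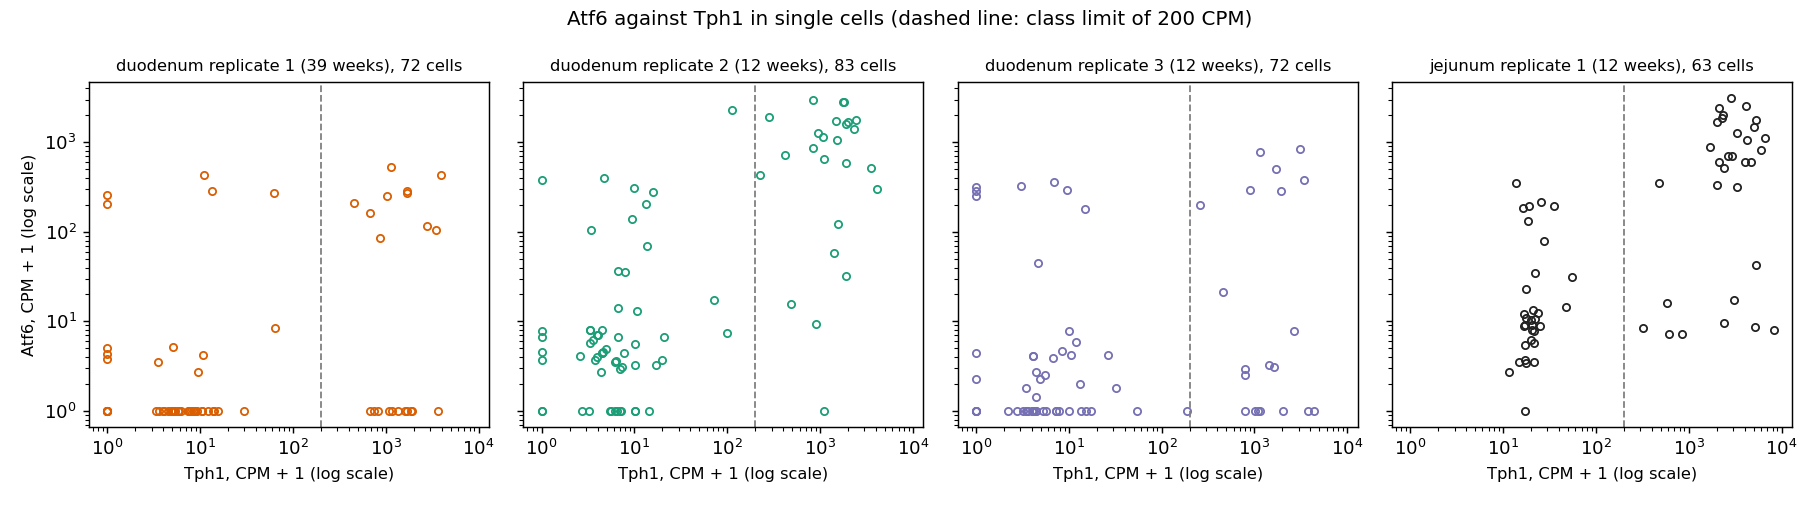
Atf6 against Tph1 in single cells, both as CPM + 1 on log axes, with 1 panel per plate and a dashed line at the Tph1 limit of 200 CPM. Cells right of the line reach Atf6 values up to 3132 CPM in the jejunum and 2958 CPM in duodenum replicate 2, and many Tph1-high cells of duodenum replicates 1 and 3 have no Atf6 count.

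The genes most like Atf6 over the 15 sums (Pearson correlation of log2(CPM + 10) centred within plate, 3204 genes with a mean of at least 50 CPM) were Afp (0.92), B4galt1 (0.89), Zfp148 (0.89), Amigo2 (0.88) and Trpa1 (0.88). Trpa1, an ion channel of enterochromaffin cells, is also on the marker list. This list was drawn up after the Atf6 values had been seen, and the 15 sums share plates and classes. By the same measure the genes most like the mean of the 10 were Cmas (0.90), Pcsk1n (0.89), Git1 (0.86), Crebbp (0.86) and Nedd4l (0.85), among 3061 genes outside the gene lists.

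Xbp1 encodes the transcription factor whose RNA is spliced by IRE1 (ENSMUSG00000020484; chromosome 11, 5520659 to 5525893, plus strand). Its level in Tph1-high cells was even, at 151, 121, 116 and 166 CPM from duodenum replicate 1 to the jejunum, and in peptide-hormone-high cells it was 106, 96.8 and 122 CPM. In Agr2/Lyz1-high cells it was 236, 65.3, 36.8 and 250 CPM, and in other cells 178, 114, 49.7 and 152 CPM. The ranges overlap in every pair of classes. The log2 fold changes against other cells were 0.31 ± 0.46, 0.06 ± 0.50 and 0.15 ± 0.46 (SE) in Agr2/Lyz1-high, peptide-hormone-high and Tph1-high cells, with edgeR adjusted p of 0.933, 0.990 and 0.959.

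Hspa5 encodes BiP, the main ER chaperone, which also holds the sensors inactive (ENSMUSG00000026864; chromosome 2, 34771970 to 34777547, plus strand). In other cells it stood at 591, 420 and 161 CPM in the duodenum replicates and 560 CPM in the jejunum. In peptide-hormone-high cells it was 967, 650 and 753 CPM in duodenum replicates 2 and 3 and the jejunum, and in Tph1-high cells 1071, 756, 594 and 718 CPM on the 4 plates. Both hormone classes were above other cells on every plate that held them. Their log2 fold changes were 1.05 ± 0.48 (SE; edgeR adjusted p = 0.610) and 0.72 ± 0.45 (adjusted p = 0.602), neither past the threshold. In Agr2/Lyz1-high cells the values were 1219, 378, 657 and 183 CPM, above other cells on 2 of 4 plates only. The 2 lower values are from the plates with few cells past the Agr2 limit. The same plates held the 2 lower values of this class for Hsp90b1, Pdia4, Sdf2l1 and Qsox1 below. They did not for Atf6, Xbp1, Dnajb9, Creld2, Ddit3 and Herpud1. The part of this mix in the class values was not tested. Hspa5 was called by edgeR when the limits that define the classes were moved: with all limits doubled it passed in peptide-hormone-high cells (adjusted p = 0.0296). With Agr2 as the only goblet and Paneth limit it passed in peptide-hormone-high (edgeR adjusted p = 0.0486) and Tph1-high cells (0.0382). Each of these settings left 12 sums in place of 15. With Agr2 alone, cells past the Lyz1 limit only were counted as other cells, so the reference class changed too. The share of all genes called under these settings is not given here, so these calls cannot be set beside a background.

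Hsp90b1 encodes GRP94, a chaperone that folds a restricted set of secreted and membrane proteins (ENSMUSG00000020048; chromosome 10, 86690209 to 86705509, minus strand). It was 1385, 759, 585 and 582 CPM in Tph1-high cells and 885, 387, 332 and 464 CPM in other cells, higher in Tph1-high cells on each plate, although the ranges overlap. The log2 fold change was 0.49 ± 0.39 (SE; edgeR adjusted p = 0.704). In peptide-hormone-high cells it was 786, 327 and 346 CPM, and in Agr2/Lyz1-high cells 1201, 339, 753 and 219 CPM. Neither class was on one side of other cells on every plate. Duodenum replicate 1 held the highest Hsp90b1 level of each class present there. It is also the only plate with an age of 39 weeks, so age, animal and plate cannot be told apart.

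Hspa5 and Hsp90b1 were found in nearly every cell: after thinning, 90.7% and 95.9% of all 290 cells had at least 1 count. Over the 15 sums they correlated with each other (Pearson's r = 0.75 on log2 values centred within plate), the highest value among all pairs of the 10 genes. Among single cells the ranks within plate and class, over 277 cells, gave 0.24 for this pair and 0.26 for Pdia4 with Sdf2l1, the highest pair. The rank correlation of each gene with the cell's cargo share ran from -0.07 (Dnajb9) to 0.17 (Hsp90b1), with 0.15 for Atf6. In sparse counts these weak values are given as a description only.

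Chaperone promoters carry the ER stress response element (ERSE), the binding site through which ATF6 and XBP1 act together with the CCAAT-binding factor NF-Y. The element was searched for because Hspa5 and Hsp90b1 varied together over the sums. RefSeq promoter windows (GRCm38.p6, 250 bases before to 50 after each start) were found for 9 of the 10 genes, all but Atf6. ERSE, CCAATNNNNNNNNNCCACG, on either strand, was found in 3 of the 9 and in 0.119% of all 32851 windows. ERSE-II, ATTGGNCCACG, was found in 1 of the 9, Herpud1, and in 0.0365% of all windows; it does not overlap an ERSE match there. The UPRE core TGACGTGG (0.676% of all windows) and the composite C/EBP-ATF letters TGATGNAAT (0.965%) were in none of the 9. Bases outside the windows were not searched, so these absences hold for the windows only. The stretches around the matches are shown 5′ to 3′ on the gene's strand, with the matched letters in capitals; where the capitals start with CGTGG the match is on the opposite strand.
Hspa5, chr2:34772020-34772048, plus strand: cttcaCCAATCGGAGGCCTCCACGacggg
Hsp90b1, chr10:86705518-86705671, minus strand: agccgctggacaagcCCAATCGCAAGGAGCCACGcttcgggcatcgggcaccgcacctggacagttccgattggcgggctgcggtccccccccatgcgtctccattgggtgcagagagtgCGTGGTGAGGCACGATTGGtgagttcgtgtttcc
Creld2, chr15:88819505-88819553, plus strand: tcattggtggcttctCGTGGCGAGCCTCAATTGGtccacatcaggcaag
Herpud1, chr8:94386362-94386402, plus strand: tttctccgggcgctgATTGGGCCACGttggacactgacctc
The Hspa5 match ends 47 bases before the RefSeq start, and that of Creld2 ends 108 bases before it. The 2 Hsp90b1 matches, on opposite strands, end 194 and 89 bases before the start, and that of Herpud1 ends 42 bases before it. The Hspa5 stretch lies inside the gene as GENCODE M21 draws it, whose start is further upstream. A match describes letters and not binding. The 10 genes were picked as genes of this response, so matches among them were likely before the search. The shares beside all windows are a description only. Whether these letters have a part in the shared variation of Hspa5 and Hsp90b1 was not tested.

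Herpud1 encodes an ER membrane protein of the machinery that removes misfolded proteins (ENSMUSG00000031770; chromosome 8, 94386438 to 94395377, plus strand). In Tph1-high cells it was 186, 173, 337 and 308 CPM from duodenum replicate 1 to the jejunum, in peptide-hormone-high cells 343, 209 and 284 CPM, and in other cells 400, 149, 252 and 202 CPM. Agr2/Lyz1-high cells spread from 799 CPM in duodenum replicate 1 to 52.4 CPM in duodenum replicate 2, with 108 and 205 CPM in between. The classes overlap throughout. The log2 fold changes against other cells were 0.01 ± 0.63, 0.51 ± 0.64 and 0.02 ± 0.58 (SE) in Agr2/Lyz1-high, peptide-hormone-high and Tph1-high cells. Although 92.1% of all cells had at least 1 Herpud1 count, the median cell of other cells held 16.5 CPM and the highest 3753 CPM, so the sums rest on few strong cells. Antisense transcript Gm15890 overlaps the gene at no more than 6.33 CPM.

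The remaining 5 genes were sparse. In 10 of 15 sums for Dnajb9, 9 for Ddit3, 8 for Pdia4, 7 for Creld2 and 4 for Sdf2l1, a single cell held at least 50% of the counts. The same held in 6 sums for Atf6 and 6 for Herpud1, in 2 for Xbp1 and in 0 for Hspa5 and Hsp90b1. Many plate values thus follow single cells, and the log2 fold changes of the 5 sparse genes between classes have standard errors of about 1 or more.

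Sdf2l1 encodes a partner of BiP and of ER J-proteins (ENSMUSG00000022769; chromosome 16, 17130138 to 17132383, minus strand). In Agr2/Lyz1-high cells it was 99.9, 51.9, 294 and 20.7 CPM on the 4 plates, and in other cells 41.5, 49.6, 39.5 and 4.81 CPM. It was higher on each plate, but by little in duodenum replicate 2, where a single cell held 99.1% of the Agr2/Lyz1-high counts. The log2 fold change of 1.84 ± 0.99 (SE; edgeR adjusted p = 0.624) did not pass. Peptide-hormone-high cells held 131, 11.7 and 84.2 CPM and Tph1-high cells 17.6, 19.8, 46.6 and 30.8 CPM. At least 100 CPM was seen in 10 of 19, 0 of 8 and 4 of 12 peptide-hormone-high cells, so duodenum replicate 2 stood above the other plates of that class.

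Pdia4 encodes a protein disulfide isomerase (ENSMUSG00000025823; chromosome 6, 47796141 to 47813430, minus strand). In Tph1-high cells it was 4.96, 36.3, 57.0 and 1.56 CPM, and in other cells 99.3, 19.1, 37.2 and 51.1 CPM. The direction thus differed between plates, and the log2 fold change was -1.15 ± 1.40 (SE; edgeR adjusted p = 0.850). Of the jejunum counts in other cells, 99.4% came from a single cell. In peptide-hormone-high cells Pdia4 was even, at 41.3, 27.1 and 42.6 CPM, and in Agr2/Lyz1-high cells it was 84.2, 1.85, 37.3 and 1.72 CPM.

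Dnajb9 encodes ERdj4, a J-protein that works with BiP (ENSMUSG00000014905; chromosome 12, 44205559 to 44210326, minus strand). It stayed under 60 CPM in every sum, with 39.5, 31.6, 58.9 and 7.81 CPM in Tph1-high cells and 44.3, 27.5, 25.9 and 0 CPM in other cells. The jejunum held the lowest value of each class except Agr2/Lyz1-high cells, whose lowest was duodenum replicate 3. Creld2 encodes an ER-resident protein induced by stress (ENSMUSG00000023272; chromosome 15, 88819646 to 88826683, plus strand). It was 84.5, 16.0, 85.2 and 16.2 CPM in Tph1-high cells and 14.6, 44.8, 49.8 and 118 CPM in other cells, and its highest and lowest plates differed between the classes. Agr2/Lyz1-high cells were lower than other cells in Creld2 on all 4 plates, at 11.6, 0, 46.8 and 46.0 CPM, with a log2 difference of -1.10 ± 1.32 (SE; edgeR adjusted p = 0.894).

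Ddit3 encodes CHOP, the transcription factor that the PERK branch induces and that is tied to cell death after lasting stress (ENSMUSG00000025408; chromosome 10, 127290774 to 127296288, plus strand). In Tph1-high cells it was 11.8, 87.7, 74.5 and 33.7 CPM and in peptide-hormone-high cells 55.5, 62.4 and 32.6 CPM. In other cells it was 5.23, 0.426, 21.6 and 0.962 CPM, and in Agr2/Lyz1-high cells 0, 27.3, 17.2 and 0.861 CPM. Both hormone classes were above other cells on every plate that held them, though duodenum replicate 1 of the Tph1-high cells fell within the range of other cells and rested on a single cell with 97.6% of the counts. The log2 fold changes were 2.62 ± 1.48 in Tph1-high (SE; edgeR adjusted p = 0.558) and 2.56 ± 1.70 in peptide-hormone-high cells (adjusted p = 0.729), neither past the threshold. At least 100 CPM was seen in 1 of 19, 8 of 24, 5 of 19 and 4 of 30 Tph1-high cells, against 1 of 37, 0 of 31, 2 of 36 and 0 of 11 other cells. After thinning, with the cells of all plates pooled, at least 1 count was found in 27.2% of Tph1-high, 25.6% of peptide-hormone-high, 16.1% of Agr2/Lyz1-high and 6.96% of other cells (unthinned 39.1%, 38.5%, 25.8% and 16.5%). Immediate-early genes were also highest in the hormone classes (values above), and their part in the Ddit3 levels was not tested. Mars overlaps Ddit3 on the opposite strand at 10.5 to 28.1 CPM in the classes, and Gm4189 does so at no more than 3.39 CPM. Whether counting used strand is not given in the sources used here. Another protein-coding entry named Ddit3 overlaps it on the same strand and is absent from the count table. The part of these overlaps in the Ddit3 counts was not tested.

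**Figure D3:**
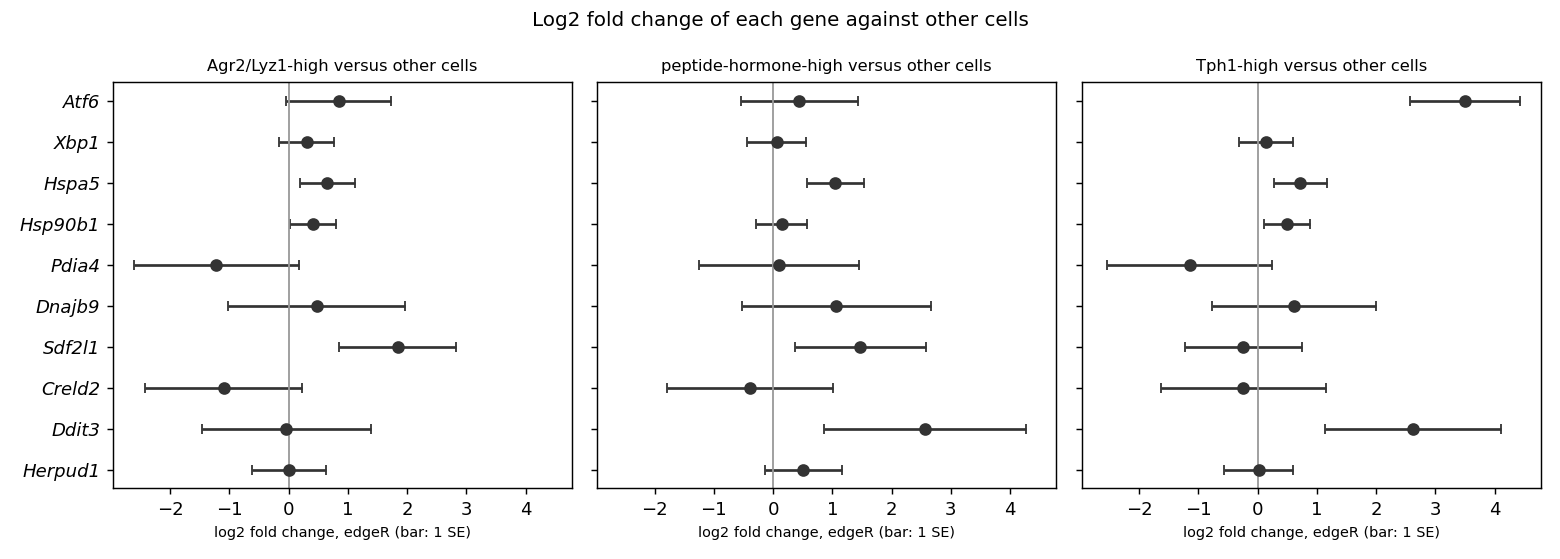
Log2 fold change of each gene against other cells (edgeR; point, estimate; bar, 1 SE) in Agr2/Lyz1-high, peptide-hormone-high and Tph1-high cells. Atf6 in Tph1-high cells, at 3.50 ± 0.92, lies farthest from 0; the bars of most other genes span or nearly reach 0, and no gene passed the adjusted threshold.

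As a group, the 10 genes had a median log2 fold change of 0.36 in Agr2/Lyz1-high, 0.48 in peptide-hormone-high and 0.32 in Tph1-high cells against other cells, where the median of all genes tested was -0.48, -0.26 and 0.05. Of the 10, 7, 9 and 7 were above 0. The share of all genes above 0 was not counted, so these numbers have no background beside them. Whether the 10 differ from all genes as a group was not tested. Between Agr2/Lyz1-high and hormone-high cells the median was -0.31, against -0.50 over all genes, and between peptide-hormone-high and Tph1-high cells 0.13, against -0.16. The median of all genes moved with the tool, to -0.27, -0.13 and 0.11 by DESeq2 and -0.01, 0.01 and 0.04 by limma in the first 3 comparisons, where those of the 10 genes were 0.45, 0.61 and 0.37 by DESeq2 and 0.45, 0.43 and 0.31 by limma. The number of the 10 seen in a cell, with at least 1 count after thinning, had a median of 6 in Agr2/Lyz1-high and peptide-hormone-high cells and 5 in Tph1-high and other cells.

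The wider ER pathway was covered by 6 lists, of which 140 genes were tested between classes. None of the 11 sensors and their proteases, 19 genes of ER-associated degradation or 30 of ER-to-Golgi transport passed by edgeR in any class comparison. Against other cells, 0 of the 140 passed by edgeR in Agr2/Lyz1-high cells (20 at an unadjusted p under 0.05, 7 by DESeq2) and 0 in peptide-hormone-high cells (17 and 9). Of all genes, 8.49% and 8.18% had an unadjusted p under 0.05 in these comparisons, and DESeq2 called 8.27% and 6.63%. In Tph1-high cells 1 of 23 genes of the PERK and ATF4 branch was higher, and 1 of 26 chaperone and folding genes was lower. In Agr2/Lyz1-high against hormone-high cells, 2 of 26 chaperone and folding genes and 1 of 31 genes of ER entry and glycosylation were higher, and 1 of 23 genes of the PERK and ATF4 branch was lower. In peptide-hormone-high against Tph1-high cells 0 of the 140 passed (13 at an unadjusted p under 0.05, beside 7.64% of all genes, and 7 by DESeq2, beside 6.08%). The shares called, 1.43% in Tph1-high against other cells and 2.86% in Agr2/Lyz1-high against hormone-high cells, are near those of all genes, 1.25% and 2.69%. At an unadjusted p under 0.05 there were 15 and 25 of the 140, beside 10.8% and 17.8% of all genes, and DESeq2 called 6 and 21, beside 7.16% and 21.3%.

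Ppp1r15a was the gene of the PERK and ATF4 branch in both comparisons. It encodes GADD34, the phosphatase subunit that restores translation after PERK has slowed it, and is also known to respond to cell dissociation. It was 318, 330 and 306 CPM in the Tph1-high cells of the duodenum replicates and 119 CPM in those of the jejunum, against 25.8, 28.2, 39.2 and 5.77 CPM in other cells. All Tph1-high plates lay above all plates of other cells, with a log2 fold change of 3.30 ± 0.67 (SE; edgeR adjusted p = 0.0353). Peptide-hormone-high cells held 72.7, 68.6 and 86.8 CPM and Agr2/Lyz1-high cells 33.7, 5.56, 16.7 and 7.96 CPM. Agr2/Lyz1-high cells were lower than hormone-high cells by a log2 difference of -3.14 ± 0.66 (edgeR adjusted p = 0.0263). The order of the classes in Ppp1r15a follows that of the immediate-early list, highest in Tph1-high, then peptide-hormone-high cells; its part in this result was not tested. Without any 1 of the plates the Tph1-high call was lost (edgeR adjusted p from 0.154 to 0.188, log2 fold change from 3.04 to 3.63), and so was the Agr2/Lyz1-high call (0.0562 to 0.132, -3.54 to -2.76).

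Cnpy2 encodes a small ER protein of the canopy family. It was lower in Tph1-high cells, at 47.6, 62.2, 38.4 and 30.7 CPM, than in other cells, at 142, 163, 84.0 and 140 CPM, with no overlap between the groups. The log2 fold change was -1.75 ± 0.36 (SE; edgeR adjusted p = 0.0407). Agr2/Lyz1-high cells held an even 149, 147, 144 and 153 CPM and peptide-hormone-high cells 112, 86.2 and 66.9 CPM, and the Agr2/Lyz1-high class was higher than the hormone classes by 1.63 ± 0.31 (edgeR adjusted p = 0.0159). Both calls were lost without any 1 plate, with adjusted p from 0.186 to 0.301 and from 0.0633 to 0.138, while the log2 values stayed between -1.84 and -1.65 and between 1.53 and 1.84.

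Qsox1 encodes a sulfhydryl oxidase that forms disulfide bonds in secreted proteins. In Agr2/Lyz1-high cells it was 1448, 180, 1254 and 491 CPM. In Tph1-high cells it was 396, 205, 101 and 121 CPM, and in peptide-hormone-high cells 120, 246 and 166 CPM. The Agr2/Lyz1-high class was higher by 2.16 ± 0.43 (log2, SE; edgeR adjusted p = 0.0207), but in duodenum replicate 2 its level lay between those of the hormone classes. Without that plate the value was 2.59 (adjusted p = 0.00907), and without duodenum replicate 1, duodenum replicate 3 or the jejunum the call was lost (adjusted p = 0.107, 0.158 and 0.130). Sec11a, a catalytic subunit of the signal peptidase that trims proteins entering the ER, was 118, 227, 253 and 199 CPM in Agr2/Lyz1-high cells. It was 62.6, 179, 152 and 138 CPM in Tph1-high and 135, 99.0 and 103 CPM in peptide-hormone-high cells, and lower than in Agr2/Lyz1-high cells of the same plate throughout. Other cells held 124, 197, 133 and 204 CPM, above Agr2/Lyz1-high cells on 2 of 4 plates. The log2 difference of 1.18 ± 0.27 (SE; edgeR adjusted p = 0.0442) was not called without any 1 plate (adjusted p from 0.115 to 0.247).

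**Figure D4:**
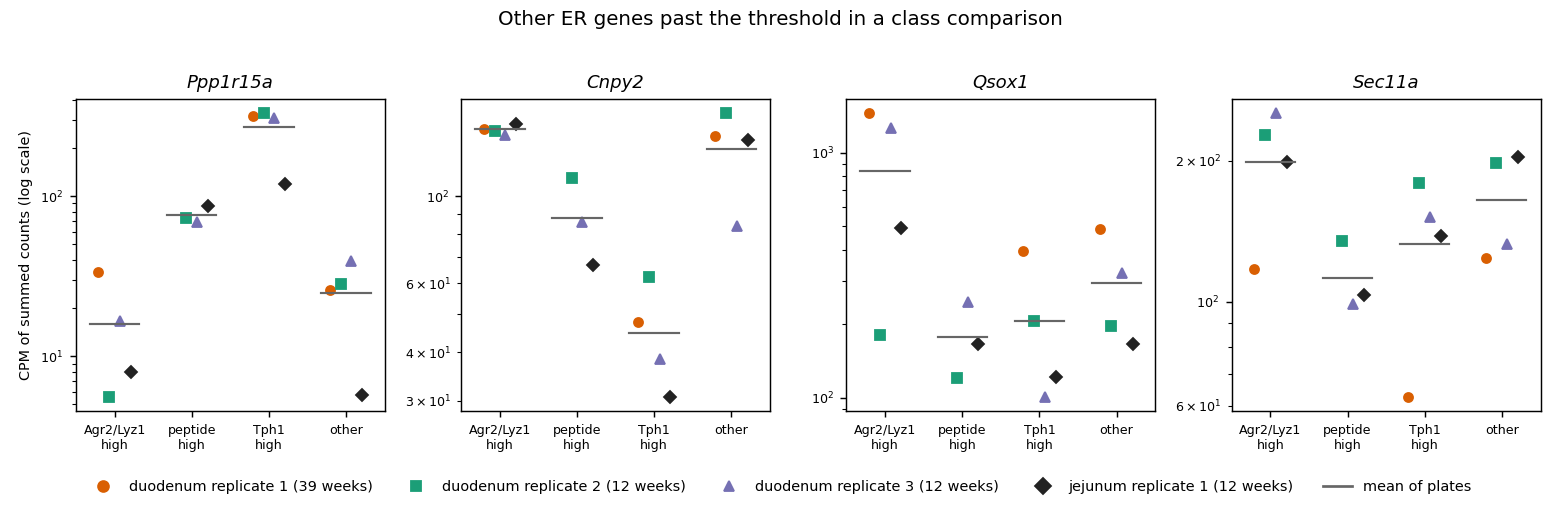
Levels (CPM of summed counts, log axis) of the 4 further ER genes past the threshold in a class comparison; each point is 1 plate and the grey line is the mean of the plates. Ppp1r15a is highest in Tph1-high cells (119 to 330 CPM), Cnpy2 is lowest there (30.7 to 62.2 CPM), and Qsox1 reaches 1448 CPM in Agr2/Lyz1-high cells, with duodenum replicate 2 low at 180 CPM.

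The jejunum was represented by 1 plate, so tissue, animal and plate cannot be told apart. On sums of all cells of a plate, 0 of the 10 genes passed between jejunum and duodenum by edgeR (0% of 19322 genes; 817 genes at an unadjusted p under 0.05, none of the 10), by DESeq2 (4.28% of the 17073 genes given an adjusted p) or by limma (0%). Atf6 was 63.4, 430 and 72.4 CPM in the duodenum replicates and 568 CPM in the jejunum, so duodenum replicate 2 resembled the jejunum more than its own tissue. The log2 difference was 1.60 ± 0.98 (SE; edgeR adjusted p = 0.934). The share of Tph1-high cells was 47.6% on the jejunum plate and 26.4 to 28.9% on the duodenum plates, with 28.9% on duodenum replicate 2. The part of this share in the Atf6 levels was not tested. Dnajb9 (12.5 CPM in the jejunum, 29.2 to 39.6 CPM in the duodenum) and Pdia4 (16.8 and 29.6 to 63.4 CPM) lay below all duodenum plates, with log2 differences of -1.43 ± 0.67 and -1.38 ± 0.69 (SE; edgeR adjusted p = 0.934 for both). Hspa5 was 650 CPM in the jejunum and 390 to 900.1 CPM in the duodenum. A term for the difference of the class effects between tissues, added after the data had been seen, gave 0 of 18310 genes past the threshold by edgeR in each class against other cells. The term rests on the 1 jejunum plate, and the values that follow were picked from the 10 genes after all had been seen. For Hspa5 in Agr2/Lyz1-high cells, whose jejunum value of 183 CPM was the lowest of that class, it was -2.56 ± 0.85 (log2, SE). For Dnajb9 it was 10.7 ± 4.1 in Agr2/Lyz1-high, 10.4 ± 4.1 in peptide-hormone-high and 8.8 ± 4.0 in Tph1-high cells. The jejunum's other cells had no Dnajb9 count.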

How the data were processed

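The authors deposited 1 table of counts per gene and well, used here as whole-number counts which may hold PCR copies; every interval covers counting error only. Per the submitters' processing notes, the build was mm10 and the tools named are bcl2fastq 2.17.1.14, cutadapt 1.10, Bowtie2 2.2.8, STAR 2.5.3a, UMI-tools 0.4.4 and HTSeq 0.6.1. The sources used here give neither their settings nor whether copies were collapsed. Symbols and positions came from GENCODE M21 on GRCm38. Columns were assigned to plates by matching the experiment number with the pool number of the sample titles, and the tissue and age of a plate rest on that match. Plate totals ran from 23893272 to 46490618 counts, and 0 of the 290 cells had the same counts as another. By the name the submitters gave them, the deposited counts are of filtered cells, and the rule of that filter is not given here. The 92 sorted wells per plate left 290 cells in the table, the lowest with 202711 counts. No further cell filter and no doublet caller was applied.

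Counts were summed per plate and class (at least 5 cells, 15 sums) and tested with edgeR 4.0.16 (R 4.3.3; TMM, filterByExpr, quasi-likelihood test, plate as a block, Benjamini-Hochberg over all genes tested). All sums entered 1 fit with 8 residual degrees of freedom. The SE of an edgeR log2 fold change was worked back from the test, as its absolute value divided by the square root of the F statistic. Jejunum and duodenum were compared on whole-plate sums. Plates are the replicates, and nothing says whether they came from separate cultures beyond their tissue and age. DESeq2 1.42.0 and limma 3.58.1 (mean of the cells' log2(CPM + 10)) were alternatives, beside other normalization, filters, class limits, thinning to 100000 counts, and leaving out plates. CPM are per 1000000 counts of the cell or sum. The edgeR script was tested on simulated data. The 7 genes that set the limits were left out of counts over all genes.

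The 10 genes, the class limits and the wider lists were chosen with earlier results of these data known. Named are the 10 genes and, from each wider list and comparison, up to 3 genes past the threshold that moved the same way on every plate, largest change first. The 5 genes most like the mean of the 10 were taken by correlation.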

Additional observations from a re-analysis of the deposited data

Results flagged for a closer look

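Of 30 groups of 4 plate values (a gene in a class present on all plates), 1 held a plate set far apart from the rest. Chance alone gives about 1 in 20 such groups. The value was the Atf6 level of 124 CPM in the other cells of duodenum replicate 2, while the other plates lay between 11.2 and 21.9 CPM. A single cell among the 31 held 71.3% of these Atf6 counts, and without it the level was 36.9 CPM.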

How the results depend on the processing

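The number of the 10 genes past the threshold was recomputed under 19 alternatives for the class comparisons and 8 for the tissue comparison. It stayed at 0 except in 6 cases. DESeq2 gave 1 (Atf6) in Tph1-high against other and in peptide-hormone-high against Tph1-high cells, and limma gave 2 (Hsp90b1 and Atf6) in Tph1-high against other cells. Doubled class limits gave 1 (Hspa5) in peptide-hormone-high against other cells. Agr2 as the only goblet and Paneth limit gave 1 (Hspa5) there and in Tph1-high against other cells. Each of these 2 settings left 12 sums in place of 15, and the share of all genes called under them is not given here. The cause was not tested. Leaving out each plate in turn gave 0 to 0 in all comparisons; without the jejunum plate the tissue comparison has no value. Replicate numbers only name plates. Without the plate block (no replicate block) the count was 0 in each class comparison, and the Cnpy2 and Ppp1r15a calls in Tph1-high against other cells and the Sec11a call in Agr2/Lyz1-high against hormone-high cells were lost (edgeR adjusted p = 0.0598, 0.0510 and 0.131). No paired analysis was possible because the tissue comparison shares only 1 number between its groups. Over all genes, the calls in Tph1-high against other cells ran from 71 (a plate left out) to 1092 (DESeq2), against 191. For Agr2/Lyz1-high against other cells they ran from 0 to 1262 (main value 2), and for peptide-hormone-high against other cells from 0 to 1012 (2). They ran from 141 to 3253 for Agr2/Lyz1-high against hormone-high cells (411), from 0 to 928 for peptide-hormone-high against Tph1-high cells (5) and from 0 to 730 between tissues (0). Of 60 pairs of gene and comparison, 35 changed sign under at least 1 alternative and 25 kept it, among them Atf6 in Tph1-high against other cells. No called value changed sign.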
